A study of Mus musculus with 4 samples.

Results

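The genes described here encode replication-independent histones, whose production is not limited to S phase, with the proteins Atrx and Daxx that place one of them on chromatin. They were chosen by symbol as 10 rows of the deposited count table, which held 47937 gene rows. The set comprises 5 H2A variants (H2afz, H2afv, H2afx, H2afy and H2afj), both genes of histone H3.3 (H3f3a and H3f3b), the linker histone H1f0, Atrx and Daxx. All 10 had counts and passed the filter on low counts, as did 16240 of the gene rows.

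The data were total RNA-seq read counts from wild-type mouse embryonic fibroblasts (MEF cells), which are connective tissue cells grown in culture from mouse embryos. One group was left untreated and the other was exposed to 50 µM genistein, a plant isoflavone, for 24 h, with 2 libraries in each group. The labels name no vehicle for the untreated cells and do not say whether the libraries came from separate cultures, so the tests measure the spread between these libraries, which may be technical. The total counts ranged from 28591958 to 31464284 per library.

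Most histone genes are transcribed in S phase to package newly copied DNA, and their mRNAs end in a stem-loop in place of a poly(A) tail. Replication-independent variants are made throughout the cell cycle from genes that mostly have introns and polyadenylated mRNAs, and they replace the S-phase histones at particular places. ATRX and DAXX form a complex that deposits H3.3 at telomeres and at pericentric heterochromatin, the repeat-rich chromatin beside mouse centromeres, whereas the HIRA complex deposits H3.3 at active genes.

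A sequence feature sets 1 of the 8 histone genes apart from the others. A histone-type stem-loop, searched for as 6 paired bases starting with GG around a loop of 4 bases with at least 3 T, was found downstream of the stop codon of H2afx and in no other gene of the set. It lay at chr9:44335240-44335255 on the plus strand of GRCm38, beginning 47 bases after the stop codon and 822 bases before the end of the annotated transcript. H2afx mRNA is known to exist both in a stem-loop form and in a longer polyadenylated form. The element is shown with 5 bases on either side, with the stem and loop in capitals.
H2afx: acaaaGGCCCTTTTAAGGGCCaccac
The same search found a stem-loop in 45 of 67 annotated replication-dependent histone genes (67.2%) and in 133 of 21901 protein-coding genes (0.607%), and the version most often found in replication-dependent transcripts was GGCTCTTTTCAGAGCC.

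The pairs of paralogs that encode the same or nearly the same protein differ at many coding bases. The promoters of the H3.3 pair also differ in the motifs searched for. The coding sequences of H3f3a and H3f3b, which specify an identical H3.3 protein, differed at 95 of 408 bases, of which 81 were at the third codon position, 14 at the first and 0 at the second. Those of H2afz and H2afv, which encode the H2A.Z proteins H2A.Z.1 and H2A.Z.2, differed at 80 of 384 bases, of which 69 were at the third position, 9 at the first and 2 at the second. The 250 bases before each RefSeq start site (GRCm38.p6) are printed below because the members of each pair differed in their response to genistein. Whether the promoter sequences have a part in that difference was not tested. Capitals mark matches on either strand to the CCAAT box, to the TATA box letters TATAAA and to the GC box core GGGCGG. On the other strand the first motif reads ATTGG, and the last of the motifs reads CCGCCC.
H2afz, chr3:137864237-137864486, plus strand: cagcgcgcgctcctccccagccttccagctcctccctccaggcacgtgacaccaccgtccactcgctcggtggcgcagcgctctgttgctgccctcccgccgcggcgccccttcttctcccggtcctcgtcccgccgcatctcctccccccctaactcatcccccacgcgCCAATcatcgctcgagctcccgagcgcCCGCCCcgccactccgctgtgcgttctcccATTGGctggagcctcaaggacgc
H2afv, chr11:6444444-6444693, minus strand: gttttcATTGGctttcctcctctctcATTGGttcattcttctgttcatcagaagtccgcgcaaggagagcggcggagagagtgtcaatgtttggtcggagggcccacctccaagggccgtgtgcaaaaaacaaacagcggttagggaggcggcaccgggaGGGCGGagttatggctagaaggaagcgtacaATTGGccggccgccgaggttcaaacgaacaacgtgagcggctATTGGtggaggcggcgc
H3f3a, chr1:180813606-180813855, minus strand: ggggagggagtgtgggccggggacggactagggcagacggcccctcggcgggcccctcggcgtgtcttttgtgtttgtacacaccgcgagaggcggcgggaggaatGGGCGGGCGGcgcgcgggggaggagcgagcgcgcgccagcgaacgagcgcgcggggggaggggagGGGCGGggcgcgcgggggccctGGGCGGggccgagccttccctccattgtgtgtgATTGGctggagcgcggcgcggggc
H3f3b, chr11:116024505-116024754, minus strand: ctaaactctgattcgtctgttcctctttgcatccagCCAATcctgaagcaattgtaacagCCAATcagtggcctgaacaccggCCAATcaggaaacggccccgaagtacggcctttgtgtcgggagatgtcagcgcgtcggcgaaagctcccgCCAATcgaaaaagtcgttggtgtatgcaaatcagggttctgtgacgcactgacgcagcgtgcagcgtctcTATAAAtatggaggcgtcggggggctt
In these windows CCAAT occurred 2 times for H2afz, 4 times for H2afv, 1 time for H3f3a and 4 times for H3f3b. The GGGCGG core occurred 1 time for H2afz, 1 time for H2afv, 4 times for H3f3a and 0 times for H3f3b. TATAAA occurred 1 time for H3f3b and 0 times for H2afz, H2afv and H3f3a. Of these motifs, the H2A.Z pair thus differed in the number of CCAAT alone.

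Of the 10 genes, 9 had a promoter in the RefSeq table, with 11 start sites. Windows of 300 bases, including 50 bases after the start, were searched. CCAAT occurred in 7 of these 9 genes, at 7 of the 11 start sites, and in 37.4% of all 32851 promoters. It occurred at 2 or more places in 5 of the genes (H2afz, H2afv, H2afj, H3f3b and Atrx), or 5 of the 11 start sites, and in 11.7% of all promoters. H2afy and H1f0 held no CCAAT in the window. GGGCGG was found for 7 of the 9 genes, at 9 of the 11 start sites (35.7% of all promoters). TATAAA was found for H3f3b alone, at 1 of the 11 start sites (13.6%). These matches are letters in a window, and no binding was measured.

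Genistein-treated MEF cells had fewer reads from most of these genes. Relative to untreated cells, H2afx, H2afz, H1f0, H2afy, H3f3b and Daxx fell, H2afv, H2afj and H3f3a rose, and Atrx did not pass the test. Thus 3 of 10 rose, where 36.2% of the 17358 genes and repeats tested rose, and 6 of 10 fell, where 36% of all entries fell (adjusted p under 0.05, the quasi-likelihood test of edgeR, p-values adjusted by Benjamini-Hochberg). Among the 16240 genes tested, without the repeats, 5436 rose and 6210 fell. The median log2 fold change was -0.55 over the 10 genes, 0.02 over all entries and -0.03 over all genes tested. Under the thresholds of the study, which add a log2 fold change beyond 1 in size and more than 100 normalised counts on average, H2afx alone was called lower (background 3.92%) and 0 were called higher (background 3.91%). In bulk RNA, fewer cells of a kind and less RNA per cell cannot be told apart.

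**Figure D1:**
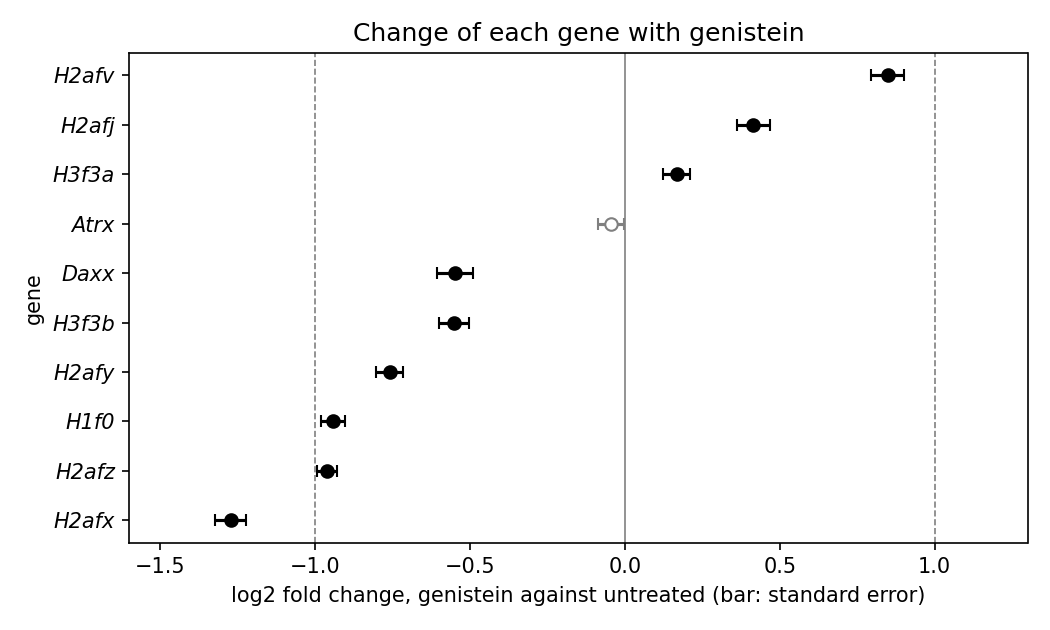
Log2 fold change of each gene in genistein-treated against untreated MEF cells, with its standard error as the bar (2 libraries per group); filled points passed an adjusted p of 0.05 and dashed lines mark an absolute log2 fold change of 1. H2afx lies beyond the lower line at -1.27, H2afv is highest at 0.85, and the open point of Atrx lies at -0.045.

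H2afx encodes H2A.X, the variant that is phosphorylated around DNA double-strand breaks. Its normalised read count, which is the count scaled to a common library size, was 8057 and 8166 without genistein, and with it 3093 and 3625. The groups did not overlap, and the genistein libraries differed from each other more than the untreated ones did. The mean fell 2.42-fold, with a log2 fold change of -1.27 ± 0.05 (SE, adjusted p = 1.8e-12, edgeR). Leaving out each library in turn gave -1.39 to -1.16. The coding part of H2afx resembles replication-dependent genes, 6 of which matched it at 90% identity or more over at least 80% of their transcript, and reads that fit both could be shared between them.

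H2afz and H2afv encode H2A.Z, which marks the nucleosomes beside active promoters and is also present in pericentric heterochromatin. H2afz, the main source of H2A.Z reads, had normalised counts of 7521 and 7614 in untreated cells and 3817 and 3957 after genistein. Its level was 1.95-fold lower with genistein, with a log2 fold change of -0.96 ± 0.03 (SE, adjusted p = 2e-13, edgeR). H2afv moved the other way. It had normalised counts of 747.2 and 730.5 in untreated cells and 1337 and 1325 after genistein, a log2 fold change of 0.85 ± 0.05 (SE, adjusted p = 4.4e-10, edgeR). The increase was 1.80-fold, and in each gene the difference between groups was far larger than that between replicates.

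The balance of the H2A.Z pair therefore changed. H2afz supplied 90.96% and 91.25% of the raw counts of the pair without genistein but 74.06% and 74.91% with it, a fall of 16.6 percentage points on average. H2afv accordingly went from 9.04% and 8.75% to 25.94% and 25.09%. The log2 fold changes of the paralogs differed by -1.81 ± 0.06, as H2afz minus H2afv (combined SE, the errors taken as independent). An exact two-sided permutation test over 4 libraries cannot go below p = 0.333, the value it gave here. The summed counts of both genes were 8268 and 8345 in untreated cells and 5155 and 5282 after genistein, a log2 difference of -0.67.

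The share of H2afz is uncertain because of a near-identical copy. Gm8203, a processed pseudogene, is 100% identical to H2afz mRNA over its whole length and held 5159 and 4837 raw counts without genistein and 2946 and 2906 with it. All near-identical copies held between 67.3% and 74.4% as many counts as H2afz itself. How reads were divided between gene and copy cannot be seen from the counts. With the copies added, H2afz had normalised counts of 12677 and 12738 in untreated cells and 6580 and 6900 after genistein, a log2 fold change of -0.92 ± 0.04 (SE, adjusted p = 1.8e-11, edgeR). Its share of the pair then went from 94.43% and 94.58% to 83.11% and 83.89%, a fall of 11 points in place of 16.6. The direction was the same with and without the copies. Since the copies kept a similar proportion to H2afz in every library, adding them could hardly have reversed it.

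**Figure D2:**
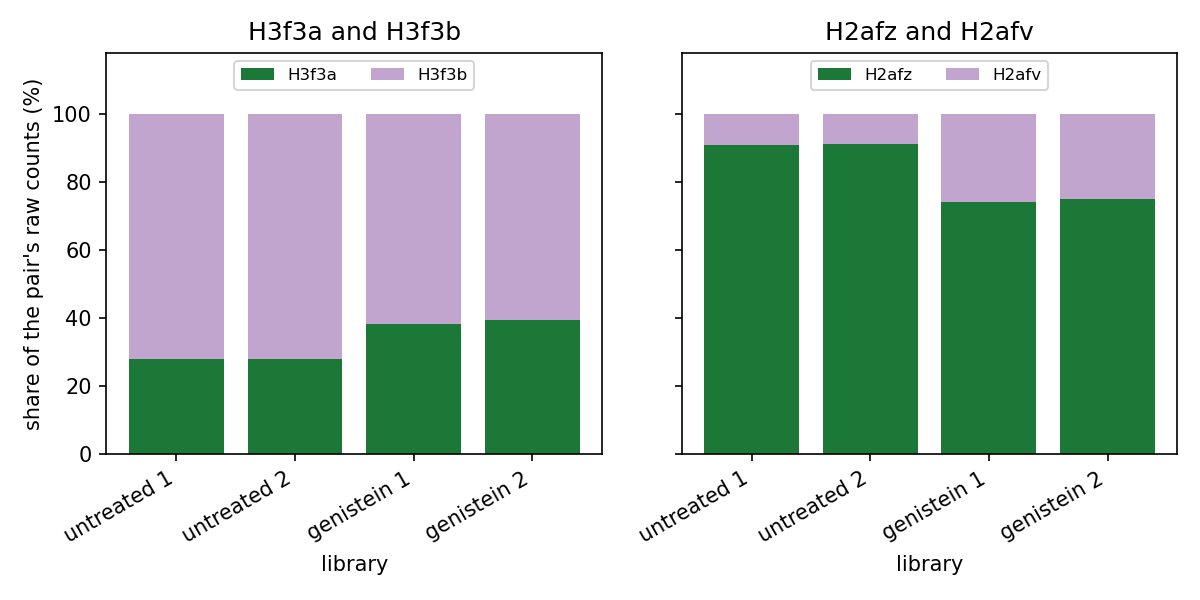
Share of the raw counts of each paralog pair that came from each gene (vertical axis, %), by library, without near-identical copies. H3f3a rises from 27.89% to 38.26% and 39.49% of the H3.3 pair, and H2afz falls from about 91% to 74.06% and 74.91% of the H2A.Z pair.

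H2afy encodes macroH2A1, an H2A with a large non-histone domain that is found on the inactive X chromosome and other silent chromatin. Its normalised counts were 2958 and 2752 in untreated cells and 1674 and 1698 after genistein. It fell with a log2 fold change of -0.76 ± 0.04 (SE, adjusted p = 1.2e-10, edgeR). H2afy2, which encodes the related macroH2A2 and was named for this comparison after its values were seen, also fell (-0.97 ± 0.05, SE, adjusted p = 6.5e-11, edgeR).

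H2afj encodes H2A.J, a mammalian variant known to accumulate in senescent fibroblasts. Its normalised counts rose from 907 and 933.8 to 1207 and 1248, with no overlap between groups. The log2 fold change was 0.42 ± 0.05 (SE, adjusted p = 2.4e-06, edgeR). As for H2afx, 6 replication-dependent genes matched H2afj at 90% identity or more, and the replication-dependent H2A genes as a sum fell in the same libraries (log2 difference -2.95).

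Per length, the make-up of the H2A variant mRNA also shifted. H2afx made up 50.87% and 51.09% of the summed level of the 5 H2A variants in untreated cells and 36.59% and 39.75% after genistein. H2afv went from 3.999% and 3.873% to 13.41% and 12.31%, and H2afj from 4.33% and 4.42% to 10.79% and 10.34%. H2afz, without its copies, went from 37.01% and 37.12% to 35.19% and 33.81%, while the total also fell. With the copies added, H2afz took the largest share, at 49.75% and 49.69% in untreated cells and 48.34% and 47.11% after genistein, and H2afx went from 40.58% and 40.88% to 29.17% and 31.76%. All these shares also depend on the use of annotated exon length. With the longest transcript as length and no copies, the mean level of H2afz lay above that of H2afx. The levels were 236.7 against 195.9 in untreated cells and 121.6 against 81.14 after genistein.

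H3f3a and H3f3b encode H3.3, the replacement H3 of active genes, telomeres and pericentric heterochromatin. H3f3b, which had the most reads of the 10 genes, fell from normalised counts of 18277 and 17528 to 12006 and 12420. Its log2 fold change was -0.55 ± 0.05 (SE, adjusted p = 2.5e-08, edgeR). H3f3a had counts of 7071 and 6778 in untreated cells and 7442 and 8106 after genistein. The groups did not overlap, but the lower genistein library lay close to the higher untreated one. Its log2 fold change of 0.17 ± 0.04 passed the test (SE, adjusted p = 0.003, edgeR) as the smallest called change of the set, and it was between 0.10 and 0.23 when each library was left out in turn.

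H3f3a supplied 27.89% of the H3.3 counts in both untreated libraries, against 38.26% and 39.49% after genistein, a gain of 11 percentage points. The log2 fold changes of H3f3a and H3f3b differed by 0.72 ± 0.07 (combined SE; exact two-sided permutation p = 0.333, the smallest possible). The sum of both genes was 25347 and 24305 in untreated cells and 19448 and 20525 after genistein, a log2 difference of -0.31. Near-identical pseudogenes held 11% to 11.6% as many counts as H3f3a, most of them from H3f3c, and 2.92% to 3.17% as many as H3f3b, and with these added the share of H3f3a rose by 11.23 points.

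Antisense transcription was also counted at H3f3a. H3f3aos, whose exons overlap those of H3f3a on the opposite strand, had 33 and 51 raw counts without genistein and 122 and 91 with it. The library kit preserves strand, but the strand setting of the counter is not given in the sources used here, so reads of such partners cannot be assigned with certainty. These counts are small beside those of H3f3a. Antisense genes overlapping H2afy and H1f0 in the annotation used here had no row in the table, and the overlapping partners of H2afx and H2afj had at most 10 counts in a library.

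H1f0 encodes H1.0, a linker histone known to accumulate in quiescent and differentiated cells. Its normalised counts were 2998 and 2989 in untreated cells and 1523 and 1591 after genistein. Both genistein libraries were well below the untreated level, and the log2 fold change was -0.94 ± 0.04 (SE, adjusted p = 3.4e-12, edgeR).

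Atrx and Daxx, the deposition partners for H3.3, differed in their response. Atrx encodes a chromatin remodelling ATPase, and its normalised counts were 9074 and 9285 in untreated cells and 8863 and 8933 after genistein. Although the groups did not overlap, the log2 fold change of -0.045 ± 0.041 did not pass the test (SE, adjusted p = 0.34, edgeR), with a 95% interval of -0.13 to 0.04 by the normal approximation. Scaled by library totals alone, the value was 0.02, so no direction is given for Atrx. Daxx encodes the histone chaperone that binds H3.3 directly. Its counts were 830.1 and 821.5 in untreated cells and 573.9 and 554.7 after genistein, a log2 fold change of -0.55 ± 0.06 (SE, adjusted p = 3.6e-07, edgeR).

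**Figure D3:**
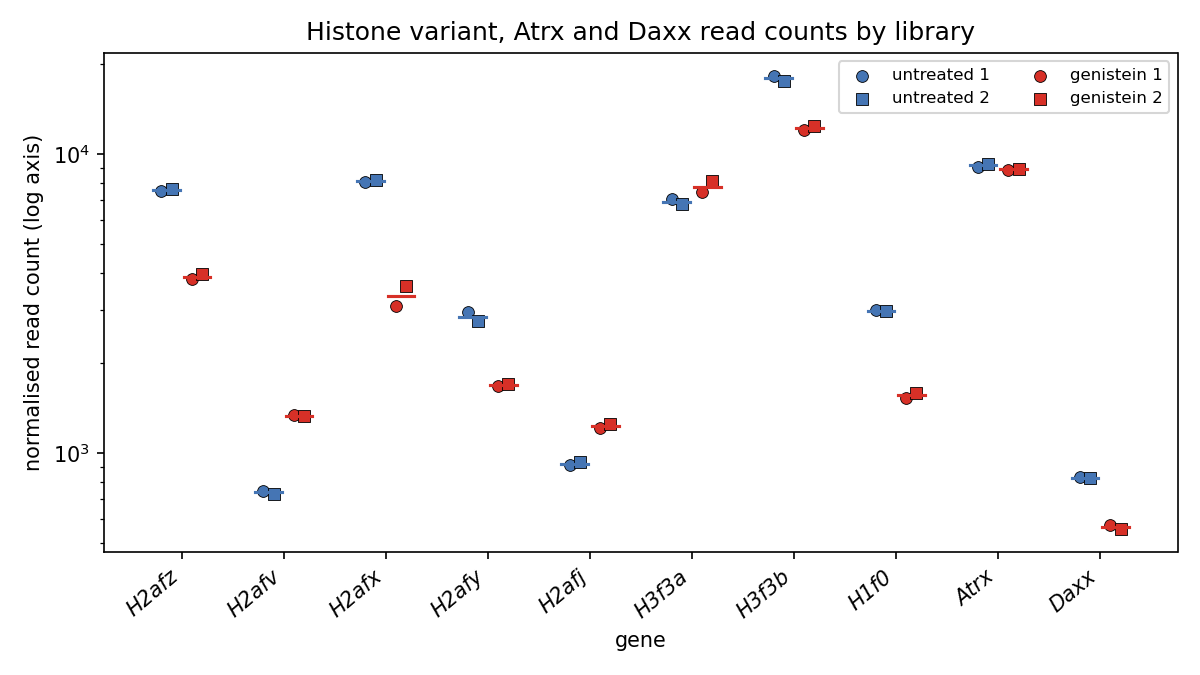
Normalised read count (log axis) of each gene in each library; circles and squares are the first and second library of a group and short lines are group means. Library pairs sit close together for every gene, the widest relative gap being between the genistein libraries of H2afx at 3093 and 3625.

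Levels can be compared between genes only per length, here as CPM divided by the annotated exon length in kilobases. Without near-identical copies, H3f3b (201.1 ± 5.95, SD, n = 2) and H2afx (195.9 ± 1.86) were highest in untreated cells and did not differ beyond their spread. They were followed by H2afz (142.4 ± 1.24), H3f3a (66.06 ± 1.98) and H1f0 (48.69 ± 0.11). Below these, H2afj was at 16.8 ± 0.34 and H2afv at 15.13 ± 0.24, and Atrx (14.1 ± 0.23) and H2afy (14.02 ± 0.72) could not be ordered. Daxx was lowest at 8.76 ± 0.06. After genistein H3f3b was still highest (137.2 ± 3.28), whereas H2afx (81.14 ± 9.07), H3f3a (74.16 ± 4.48) and H2afz (73.17 ± 1.85) overlapped each other. H2afv, at 27.25 ± 0.18, then lay above H1f0 at 25.33 ± 0.79. The order depends on the copies and on the length used. With near-identical copies added, a comparison chosen after seeing the data, H2afz was highest in untreated cells at 239.2 ± 0.82, above H3f3b at 207.1 ± 6.37 and H2afx. After genistein H3f3b with its copies (141.5 ± 3.28) lay above H2afz with its copies (126.9 ± 4.26). With the length of the longest transcript, the untreated levels of H3f3b and H2afz were 238.1 and 236.7, both above H2afx. Those of Atrx and H2afy were 29.87 and 23.75, both above H2afj and H2afv. By the same length, the mean levels after genistein were 121.6 for H2afz, 91.47 for H3f3a and 81.14 for H2afx.

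The histone variants were then set against the replication-dependent histone genes of the same type, because both were read from the same total RNA. The 65 replication-dependent genes with a row in the table include histone types that have no variant here. Together they fell by 2.71 on the log2 scale, from 343507 and 346846 normalised counts to 50792 and 54949. The 8 histone genes described here fell by 0.54 as a sum, from 48535 and 47490 to 32099 and 33969. Replication-independent genes thus made up a larger part of the histone reads in both genistein libraries.

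For H2A, the 5 variants accounted for 31.48% and 31.1% of the counts in untreated cells and 66.68% and 66.74% after genistein, beside 18 replication-dependent genes. H2afx held 8065 of 20211 and 7713 of 19076 of these variant counts in untreated cells, and 3299 of 11868 and 3581 of 11710 after genistein. The H2A shares depend on placing this stem-loop gene, whose reads could be shared with replication-dependent genes, among the variants. They also leave out the near-identical copies of H2afz. Neither choice was varied for these ratios. For H3, H3f3a and H3f3b accounted for 27.5% and 26.41% and then 67.01% and 66.08%, beside 12 genes. For H1, H1f0 accounted for 4.57% and 4.56% and then 15.39% and 14.57%, beside 6 genes. The log2 ratio of replication-independent to replication-dependent counts was higher with genistein by 2.14 (pooled SD 0.01) for H2A, by 2.43 (0.05) for H3 and by 1.88 (0.05) for H1. In each type these differences were many times the spread between replicates, and the exact two-sided permutation p was 0.333, the smallest that 4 libraries allow. H2afx, the stem-loop gene, fell more than the other variants, and less than the replication-dependent H2A sum (-2.95).

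**Figure D4:**
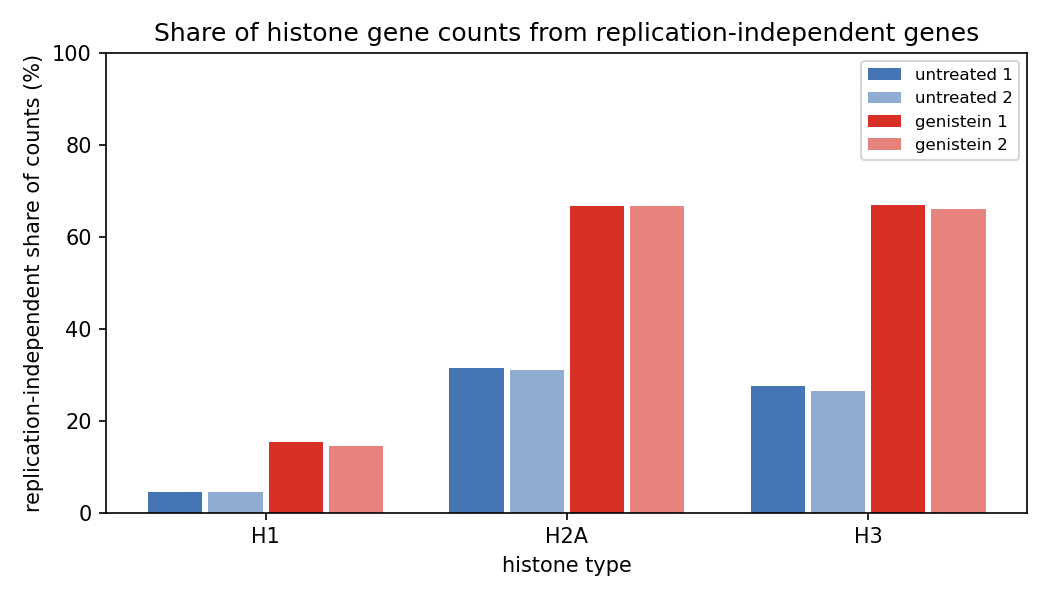
Percentage of H1, H2A and H3 gene counts that came from replication-independent genes, by library, without near-identical copies and with H2afx among the replication-independent genes. Both genistein bars exceed both untreated bars in each type, for example 67.01% and 66.08% against 27.5% and 26.41% for H3.

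The proteins that carry and exchange these histones were examined with a list of 36 chaperones, remodellers, readers and other variants. Of these, 6 rose, 27 fell and 3 did not pass (adjusted p under 0.05, edgeR), where 36.2% of all entries tested rose and 36% fell. The median log2 fold change was -0.51 over the list, 0.02 over all entries and -0.03 over all genes tested. Among 12 carriers of H3 and H3.3, 2 rose and 10 fell, to be read against the same shares of 36.2% and 36%. The members of the HIRA complex, which deposits H3.3 outside heterochromatin, went in different directions. Ubn1, a ubinuclein subunit, rose from 1750 and 1681 normalised counts to 2667 and 2568 (log2 fold change 0.61 ± 0.04, SE). Hira itself, named here after its values were seen, fell from 813.1 and 807.8 to 611.4 and 590.1 (-0.43 ± 0.06, SE). Also named after their values were seen, the ubinuclein gene Ubn2 rose by less (0.278 ± 0.040, SE) and Cabin1 fell by less (-0.235 ± 0.038, SE).

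Of 13 genes for the loading and removal of H2A.Z, 2 rose (36.2% of all entries) and 11 fell (36% of all entries). Ruvbl2 and Ruvbl1, the paired ATPases shared by the complexes that exchange H2A.Z, had the largest falls of the list. Ruvbl2 went from 2830 and 2773 to 1120 and 1146 (-1.31 ± 0.04, SE), and Ruvbl1 from 1957 and 1926 to 833.6 and 898.8 (-1.17 ± 0.05, SE). All 4 genes for H2A-H2B chaperones fell, where 36% of all entries did. Ssrp1, a subunit of FACT, went from 11554 and 11110 to 5246 and 5279 (-1.11 ± 0.04, SE).

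Mdc1, which binds phosphorylated H2A.X at DNA breaks, rose from 2536 and 2502 to 3373 and 3200 (0.38 ± 0.04, SE) while H2afx fell. Chd2, a remodeller reported to promote H3.3 deposition, rose from 2488 and 2505 to 4659 and 4684 (0.90 ± 0.03, SE). The 3 genes that did not pass were Trp53bp1, another reader at DNA breaks (-0.02 ± 0.03, SE), the linker histone H1fx (0.02 ± 0.12) and Cenpa, the H3 of centromeres (0.04 ± 0.04).

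**Figure D5:**
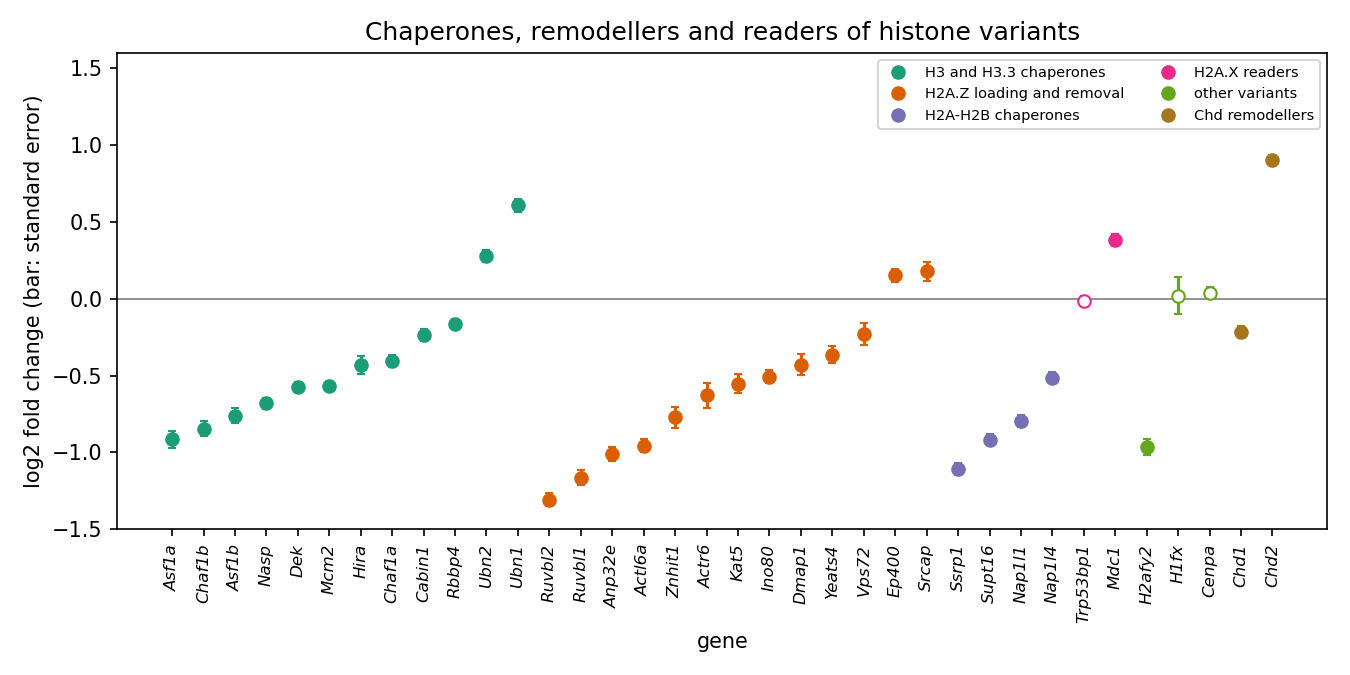
Log2 fold change of the 36 chaperones, remodellers, readers and other variants, coloured by role, with standard errors (open points did not pass an adjusted p of 0.05). All 4 H2A-H2B chaperones and 11 of 13 H2A.Z genes lie below 0, and Chd2 is highest at 0.90.

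The label of the cells was checked against markers. Of 9 fibroblast genes 8 passed the filter on low counts, with summed normalised counts of 426170 to 438298 in untreated and 398408 to 408228 in genistein libraries, while Thy1 had 0 counts in all 4. Among lists of 3 markers each for other cells, summed normalised counts went from 65.64 to 84.91 in untreated up to 211 to 213.6 in genistein libraries for leukocytes, nearly all from Cd68, with Adgre1 at 0 and Ptprc at no more than 1 count. They went from 18.98 to 26.47 up to 75.95 to 84.01 for endothelial cells, where Kdr had 16 and 19 and then 73 and 74 raw counts and the others at most 9, and from 29.64 to 36.96 up to 264.2 to 284.1 for muscle, nearly all from Des, with Myod1 at 0. Epithelial markers went from 48.7 to 55.94 down to 12.19 to 13.16, with Epcam at 0. That shift lay in Krt18, with 49 and 42 and then 9 and 5 raw counts, since Cdh1 had 7 and 4 and then 4 and 8. Neural markers, nearly all Tubb3 and with Sox10 at 0, lay at 856.5 to 912 and at 744 to 776.4, and pluripotency markers, with Sox2 at 0, at 32.97 to 37.05 and at 48.76 to 56.68. The part of these shifts in the changes of the histone genes was not tested.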

How the data were processed

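Total RNA of MEF cells was depleted of ribosomal RNA and sequenced as paired ends. After trimming with Trim Galore, the authors aligned the reads to mm10 (GRCm38) with STAR, keeping those with many alignments. TEtranscripts then counted the genes of Gencode M9 and the repeats, and the table deposited by the authors holds these counts as whole numbers with no normalisation. TEtranscripts splits reads that match several places, so counts of near-identical genes are estimates.

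Genes and repeats were fitted together with edgeR 4.0.16 in R 4.3.3: filterByExpr by group, TMM scaling, the quasi-likelihood test and Benjamini-Hochberg adjustment over 17358 entries. Thresholds followed the study (adjusted p-value 0.05, absolute log2 fold change 1, mean normalised count 100). The standard error is the log2 fold change divided by the square root of F. An entry with no name held 0.00208% to 0.00314% of counts and was left out. Replicates were separate libraries (chi-square per degree of freedom 5.92 and 13.3). No batch is labelled. No molecular identifiers are named in the sources used here, so PCR copies may be counted as reads, and intervals rest on the spread between libraries.

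Coordinates, exon lengths and transcripts are from GENCODE M21 (GRCm38) and promoters from RefSeq (GRCm38.p6). Near-identical copies are annotated pseudogenes matching at 90% identity or more over at least 80% of their length (blastn 2.17.0). In simulated counts with 200 of 16665 entries changed 4-fold, edgeR recovered 198 past the thresholds with 0 false calls there, and 19 unchanged entries had an adjusted p-value under 0.05. The simulation did not cover smaller changes, or changes in as many entries as were called in the data. All 10 genes are named. From the chaperone list, the 3 higher and 3 lower genes with the largest change are named, with exceptions stated. The genes and lists were chosen with earlier results of these data known. Alternatives covered scaling, filtering, DESeq2 1.42.0, a replicate block, added copies, transcript length and leaving out each library.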

Additional observations from a re-analysis of the deposited data

How the results depend on the processing

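The 10 log2 fold changes were recomputed in 11 other fits, and 9 of the genes kept their direction in each. In the 7 of these fits that used all 4 libraries, the 9 genes also stayed called. In the main fit 36.2% of all entries rose and 36% fell. The share of all entries called alike in every fit was not computed. Atrx reversed to 0.025 with library totals alone (adjusted p = 0.66, edgeR; 0.13 to 0.97 over all other fits) and was called in none. Library totals alone moved the median of all entries from 0.02 to 0.08 (log2) and the calls from 6289 higher and 6242 lower to 6975 and 5561. Adding the near-identical copies moved the change in the share of H2afz to -11 points, and the untreated levels per length to 239.2 for H2afz, 73.53 for H3f3a and 207.1 for H3f3b (these levels were computed after seeing the data). With the longest transcript as length, the untreated levels were 236.7 for H2afz, 23.75 for H2afy, 81.48 for H3f3a, 238.1 for H3f3b, 29.87 for Atrx and 10.33 for Daxx. Of 208 alternative values, 197 kept their direction and call or moved by less than the replicate spread. Of 64 counts of calls, 57 were equal to those reported and 7 differed, all of the chaperone list, with 5 to 7 genes higher in place of 6 and 26 in place of 27 lower.

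Same-numbered libraries did not deviate together (correlation -0.026 over 12244 entries), so the numbers are not shown to pair. With 2 libraries per group, both pairs must give this same value. A replicate block changed no call, with 3 genes higher and 6 lower as before, H2afx at -1.28, H3f3a at 0.17 and Atrx at -0.045. The block moved all calls to 6182 higher and 6162 lower. DESeq2 called 4402 higher and 5338 lower of 19139.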
